A study of Mus musculus with 18 samples.

Results

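Semaphorins and ephrins are the ligands of 2 large families of guidance signals, and plexins, neuropilins and Eph receptors are the receptors that read them. Of 23919 genes in the deposited data, 54 belonged to these families, chosen by name. They were 20 semaphorins, 9 plexins, 2 neuropilins, 5 ephrin-A and 3 ephrin-B genes, 9 EphA and 5 EphB receptor genes, and Plxna4os1, an antisense RNA of Plxna4 whose name matched the plexin pattern. Their expression was followed in 18 RNA-seq libraries of C57BL/6 mouse embryos, with 3 libraries for each of 6 groups. The groups were wild type (WT) and Pitx1 knockout (KO, Pitx1-/-), each taken at 3 stages named by embryonic day, E9.5, then E11.5, then E12.5. Pitx1 encodes a homeodomain transcription factor of the hindlimb, and the nature of the allele is not described in the labels. The tissue was the field of the hindlimb together with trunk at E9.5 and the hindlimb itself at the later stages. The question put to these genes was whether loss of Pitx1 alters the set of guidance ligands and receptors that limb cells express, and how that set changes as the limb grows.

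Semaphorins of class 3 are secreted and act mostly through a complex of a neuropilin, which binds the ligand, and a class A plexin or plexin D1, which carries the signal. Classes 4 to 7 are bound to the membrane and bind plexins directly. Plexins act on small GTPases and the cytoskeleton, and commonly cause the growing tip of an axon or the edge of a migrating cell to collapse. Ephrin-A ligands are tethered to the membrane by a lipid and ephrin-B ligands by a transmembrane segment, so that Eph receptor tyrosine kinases are engaged only by contact between cells, and both cells can respond. In the limb bud the 2 systems are known for sorting motor axons into dorsal and ventral muscle, for guiding blood vessels, and for giving mesenchymal cells different adhesion along the proximodistal axis.

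The libraries held 14361919 to 60672151 fragments. Depth differed between genotypes at E9.5 and E11.5, with 20673065 to 40020110 fragments in WT against 14361919 to 18553033 in KO at E9.5 and 38770845 to 40973174 against 44986881 to 60672151 at E11.5. Pitx1 RNA was lower in all KO libraries than in all WT libraries of the same stage, with means of 22.5 against 54.8 RPKM (reads per kilobase of transcript scaled to library size) at E9.5, 20.2 against 119.7 at E11.5 and 11.9 against 90.4 at E12.5. Differences are given as log2 fold changes of KO over WT from edgeR, a count model fitted to all genes, and a gene is called where its adjusted p is under 0.05. The log2 fold change of Pitx1 was -1.28 ± 0.13 (SE; adjusted p = 0.0231, edgeR) at E9.5, -2.57 ± 0.13 (6.52e-05) at E11.5 and -2.92 ± 0.40 at E12.5, where it did not pass (0.125). There WT replicate 3 was low for Pitx1, at 44.6 RPKM, while replicates 1 and 2 had 114.2 and 112.5. The labels do not say whether the libraries of a group came from separate embryos, and the p-values therefore speak to library-to-library spread, part of which may be technical. WT replicate 3 and KO replicate 2 stood apart at E9.5. Both were high in Epha2 (7.73 and 6.89 RPKM, against 3.53 to 4.48 in the other 4 libraries) and low in Epha3 (0.639 and 1.31 RPKM, against 1.43 to 3.70). They also held the highest sums of 14 surface ectoderm markers of their genotypes (267.6 and 283.7 RPKM) and the lowest sums of 10 neural crest and Schwann cell markers (17.8 and 27.2 RPKM). For KO against WT at E9.5, the counts of calls, signs and unadjusted p-values and the value of Epha4 are also given without both.

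Most of the family was transcribed in the limb. Of the 54 genes, 42 reached a mean of 1 RPKM in WT at E9.5, 45 at E11.5 and 48 at E12.5, and 46, 44 and 47 did so in KO. Because RPKM values are per length they can be set side by side between genes, but the tables of the 3 stages were normalized separately, so levels of different stages are read with that limit and stages were tested on fragments in joint fits. At E9.5 the WT order was led by Plxnb2, a plexin bound by class 4 semaphorins, with 43.4 ± 5.44 RPKM (SD, n = 3), and by Ephb4, the venous receptor for ephrin-B2, with 41.6 ± 1.80. The ranges of these 2 overlapped. At E11.5 Nrp2, which binds Sema3f and VEGF-C, led with 73.6 ± 13.2 RPKM, ahead of Ephb4 (65.9 ± 0.427) and Plxnb2 (64.4 ± 4.96), and the ranges of neighbours in this order overlapped. At E12.5 Plxnb2 (78.7 ± 3.01) and Ephb4 (78.2 ± 5.56) were again at the top, and their ranges overlapped. Efna4 was the highest ephrin-A gene in every group and Sema3f the highest semaphorin from E11.5 on.

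**Figure D1:**
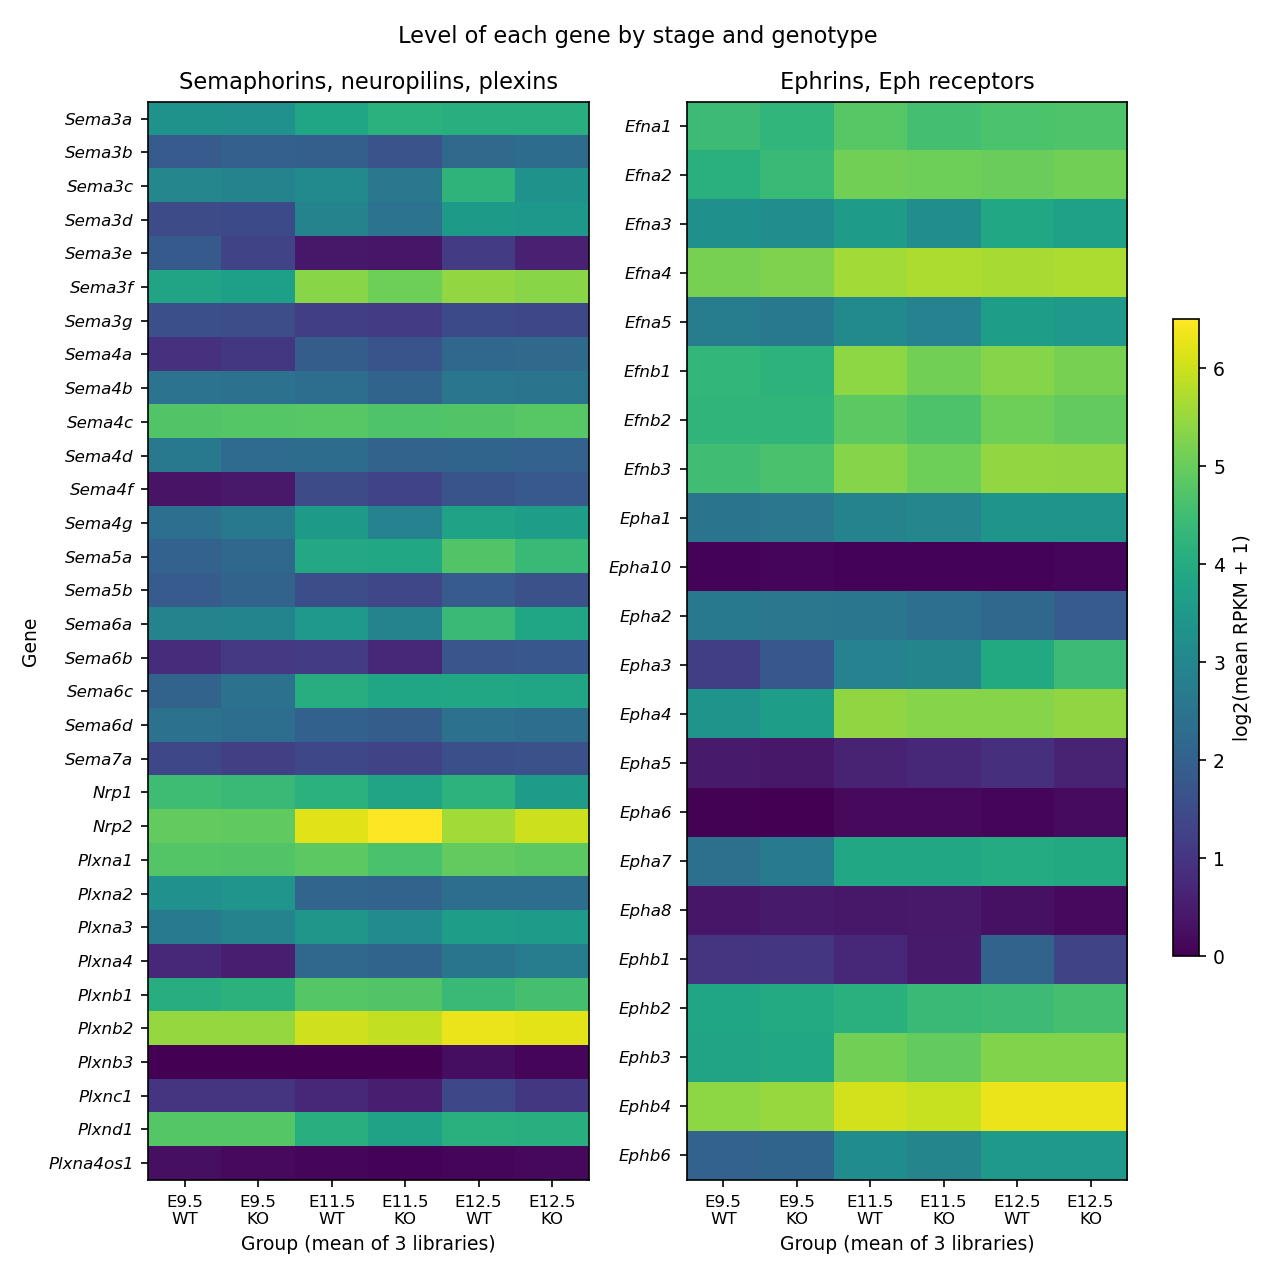
Mean RPKM of each of the 54 genes in the 6 groups, shown as log2(mean RPKM + 1) by colour, with semaphorins, neuropilins, plexins and the antisense RNA on the left and ephrins and Eph receptors on the right. Each cell is the mean of 3 libraries. Nrp2, Plxnb2 and Ephb4 are the brightest rows at E11.5. Epha5, Epha6, Epha8, Epha10, Plxnb3 and Plxna4os1 stay below 1 RPKM in all 6 groups.

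A few members were hardly seen. Epha10, which encodes an Eph receptor without kinase activity, had means of at most 0.0892 RPKM in any group. Epha6 reached at most 0.136 RPKM and Plxnb3 at most 0.174. Plxna4os1 reached at most 0.200 RPKM. Plxna4os1 and Plxna4 overlap on opposite strands, and since the strand setting of the counting is not given, their fragments cannot be told apart. These genes failed the filter on low counts in 1 or more comparisons, which left 50 members tested at E9.5, 51 at E11.5 and 51 at E12.5. Epha8 and Epha5 also stayed below 1 RPKM in every group, with highest means of 0.377 and 0.873 RPKM.

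At E9.5 no member passed the test of KO against WT. None of the 50 was called (edgeR quasi-likelihood test, adjusted p under 0.05 over all genes tested), where 0.0217% of 13804 genes did. DESeq2 and limma also called none, and 3 members (6%) had an unadjusted p under 0.05, where 4.01% of genes did. KO minus WT log2 fold changes were positive for 28 members and negative for 22, ranging from -0.76 to 0.88, with a median of 0.05 against -0.00 over all genes. Epha4, the receptor that steers motor axons to dorsal limb muscle, measured 9.22, 8.73 and 10.3 RPKM in WT and 11.1, 10.8 and 12.7 RPKM in KO. Its KO libraries lay above all WT libraries, and the log2 fold change of 0.29 ± 0.10 (SE) did not pass (adjusted p = 0.999, edgeR). Sema4g, a transmembrane class 4 semaphorin, measured 3.75, 4.25 and 4.47 RPKM in WT and 5.49, 5.24 and 4.90 in KO, also without overlap (log2 fold change 0.32 ± 0.13, adjusted p = 0.999, edgeR). Epha4 and Sema4g were the only 2 members whose KO libraries all lay above the WT libraries, where 4.7% of genes did so, and no member lay wholly below, where 4.59% did. Without WT replicate 3 and KO replicate 2 the count of calls was still 0 of 51 members, and the log2 value of Epha4 was 0.40 (adjusted p = 0.545, edgeR). Values were then positive for 32 members and negative for 19, with a median of 0.10 against -0.005 over all genes. In that fit 8 members had an unadjusted p under 0.05, and the share of all genes to set beside them is not given here.

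Some members with wide spreads at E9.5 followed the 2 libraries that stood apart. Sema3e, the class 3 ligand that binds plexin D1 without a neuropilin, measured 1.81, 0.664 and 5.24 RPKM in WT and 0.856, 2.85 and 0.852 in KO. The highest library of each genotype was the one that stood apart. Epha1, a receptor abundant in epithelia, measured 3.62, 4.10 and 6.41 RPKM in WT and 4.001, 6.44 and 4.39 in KO, and Epha7, a receptor of ephrin-A ligands, measured 3.93, 6.31 and 2.75 against 6.50, 3.39 and 6.84. Genotypes overlapped for all 3 of these genes.

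At E11.5 2 members were lower in the KO, the transmembrane semaphorin Sema6a and the receptor Plxnd1. They were 2 of 51 members tested, or 3.92%, where 1.96% of 14601 genes were called (0.945% higher and 1.01% lower). An unadjusted p under 0.05 was seen in 20 members (39.2%) and in 22.2% of genes. DESeq2 called 11 of 51 members (21.6%) and 8.96% of genes, limma called none, and leaving out each library in turn gave 0 to 3 calls in edgeR. Beyond these calls, 42 of 51 members had a negative log2 fold change, with a median of -0.23 and a range from -0.80 to 0.34, against 52.1% of all genes and a median of -0.01. Semaphorins, plexins and neuropilins had 28 negative values among 30 (median -0.29), and ephrins and Eph receptors 14 among 21 (median -0.12). In 19 members all KO libraries lay below all WT libraries, where 14% of genes did so, and in 4 members all lay above, where 13.7% did. Leaving out each library in turn left 38 to 46 members negative, with medians from -0.26 to -0.18. In bulk tissue, fewer cells of a type and less RNA per cell cannot be told apart.

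**Figure D2:**
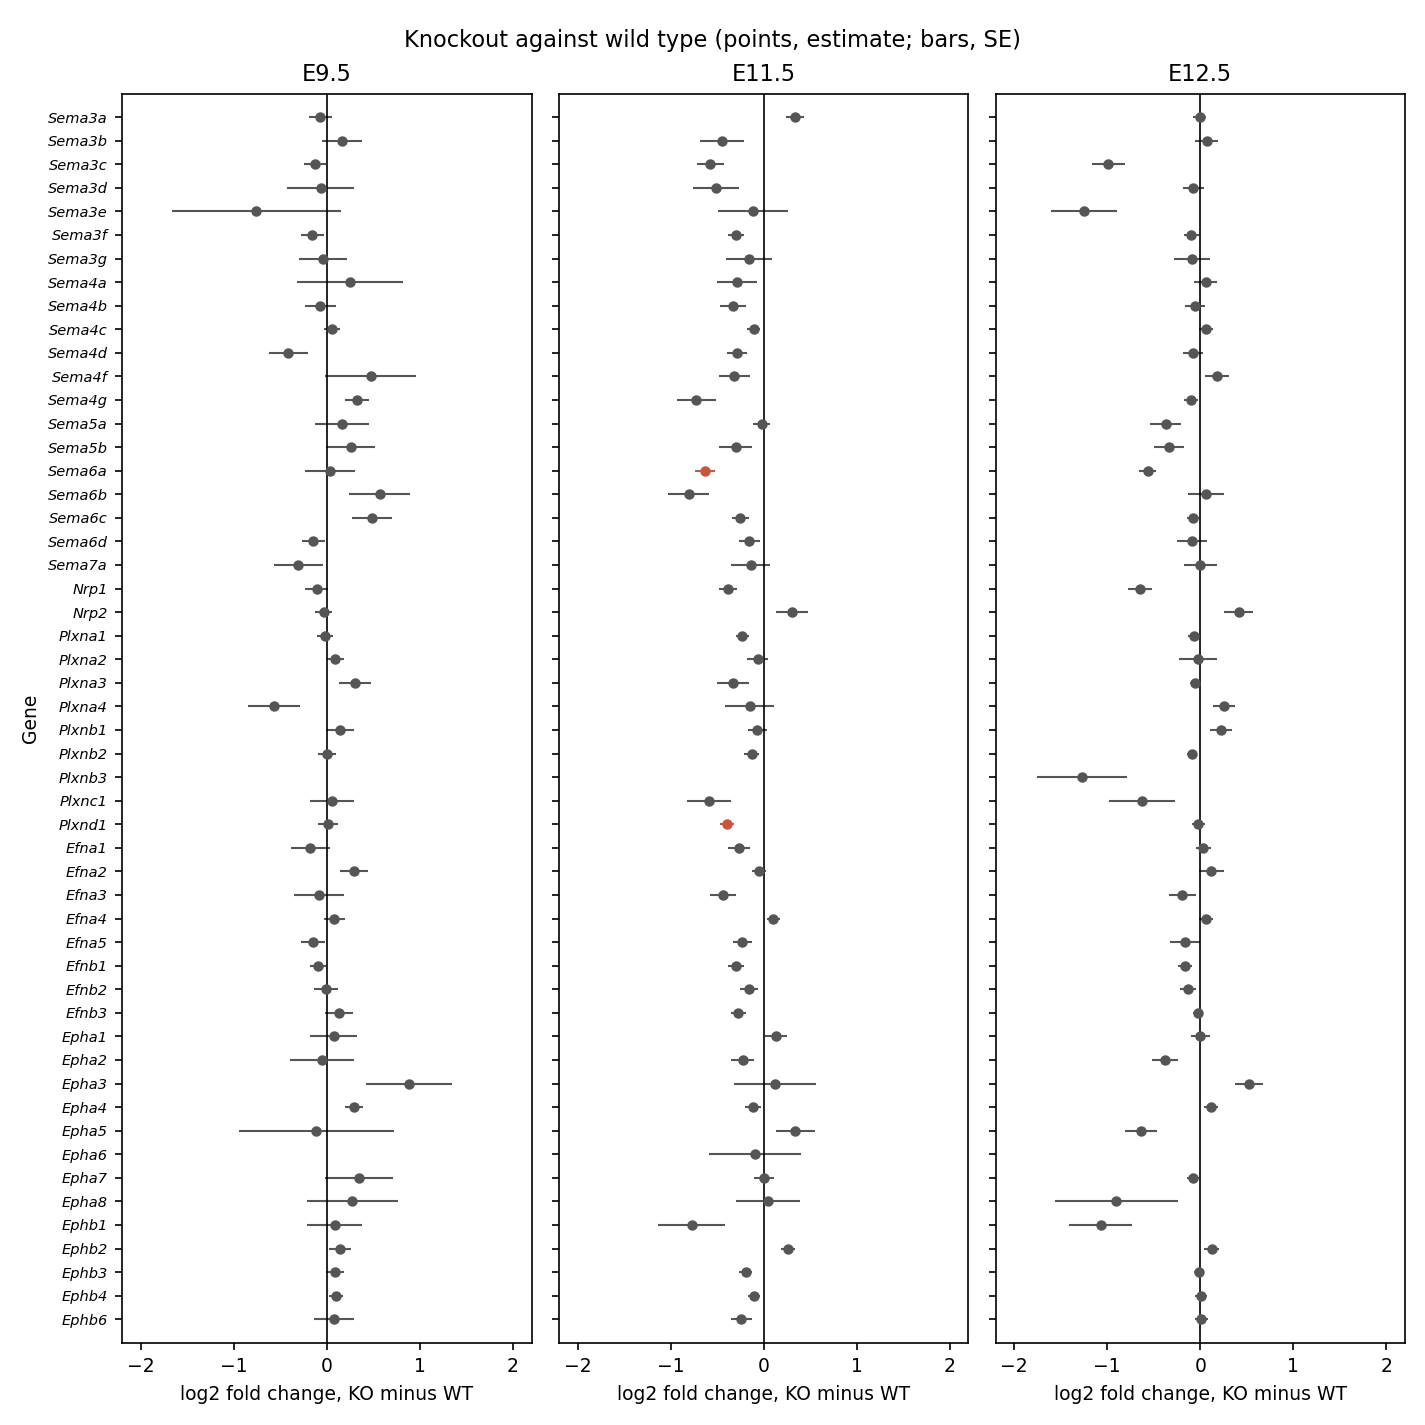
KO minus WT log2 fold change of each member tested at the 3 stages, with points for the edgeR estimate, bars for its standard error and red for an adjusted p under 0.05. At E11.5 the points of 42 of 51 members lie left of 0 and Sema6a and Plxnd1 are red, while at E9.5 28 of 50 lie to the right.

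Sema6a, which binds plexins A2 and A4 and can also act as a receptor itself, measured 10.9, 11.2 and 8.48 RPKM in WT and 7.09, 6.42 and 6.20 RPKM in KO at E11.5. Every KO library lay below every WT library, a log2 difference of -0.63 ± 0.11 (adjusted p = 0.0257, edgeR). Plxnd1, the semaphorin receptor of endothelial cells, measured 17.3, 15.7 and 15.7 RPKM in WT and 12.2, 12.2 and 12.6 in KO. The 2 genotypes were well apart, each with a narrow range, and the log2 fold change was -0.39 ± 0.07 (adjusted p = 0.0302, edgeR). Both calls were kept without WT replicate 3 (adjusted p = 0.00673 for Sema6a and 0.0298 for Plxnd1, edgeR) or KO replicate 1 (0.0256 and 0.0434). They were lost without WT replicate 1 (adjusted p = 0.176 for Sema6a and 0.157 for Plxnd1), WT replicate 2 (0.0671 and 0.0593), KO replicate 2 (0.0581 and 0.0720) or KO replicate 3 (0.166 and 0.163), all from edgeR, with log2 fold changes that stayed between -0.74 and -0.55 for Sema6a and between -0.41 and -0.34 for Plxnd1. With every library thinned to the smallest total of the stage, both adjusted p-values were 0.0263 (edgeR). DESeq2 gave 3.33e-05 for Sema6a and 0.000467 for Plxnd1, and limma on log2(RPKM + 1) gave 0.0702 and 0.0660.

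Marker RNA of several other cell types differed between genotypes at E11.5. All 14 muscle markers tested had negative log2 fold changes and 5 were called lower, with sums of 68.4 to 176.8 RPKM in WT and 25.1 to 37.1 in KO. Of 11 cartilage markers 10 were negative and 4 were called lower (sums 254.7 to 347.2 against 142.9 to 195.6), and all 14 surface ectoderm markers were positive with 1 called higher (167.9 to 202.8 against 216.1 to 235.8). DESeq2 called 12 muscle, 7 cartilage and 6 surface ectoderm markers, where it called 8.96% of genes. It also called 6 limb mesenchyme, 2 macrophage and 2 neural crest and Schwann cell markers, and no neuron or red blood cell marker. The 15 endothelial markers had 13 negative values with a median of -0.07, none called by edgeR, DESeq2 or limma and none at an unadjusted p under 0.05 in edgeR, and their sums overlapped (149.7 to 176.8 against 149.2 to 159.1 RPKM). Macrophage markers had 11 of 12 values negative, with sums of 26.9 to 35.9 against 21.7 to 24.2 RPKM. Neural crest and Schwann cell markers were negative in 6 of 8 (14.9 to 21.5 against 9.24 to 13.9 RPKM) and red blood cell markers in 7 of 9. Neuron markers were positive in 7 of 10, with overlapping sums (56.4 to 60.8 against 54.4 to 74.1 RPKM), and Chat, which marks cholinergic neurons, was at 0 in all 6 libraries of the stage. Of 15 limb mesenchyme markers 13 had positive values (median 0.21). Hoxd11, Hoxa11 and Lhx2 were called higher and Pitx1 and Tbx4 lower, and the sums overlapped. The part of the muscle, cartilage, ectoderm, neural crest and macrophage differences in the member values was not tested.

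Among the secreted class 3 ligands at E11.5, Sema3c, known for the cardiac outflow tract and for endothelial guidance, measured 6.36, 9.59 and 6.94 RPKM in WT and 5.45, 4.71 and 5.21 in KO. The ranges did not overlap, with WT replicate 2 the highest, but the log2 fold change of -0.57 ± 0.15 missed the threshold (adjusted p = 0.0703, edgeR). WT replicate 2 was also the WT library with the highest muscle and cartilage sums. Sema3f, the ligand of Nrp2 that repels motor axons, measured 42.8, 39.9 and 36.6 against 35.3, 30.0 and 32.0 RPKM, without overlap (log2 fold change -0.29 ± 0.09, adjusted p = 0.0974, edgeR). Sema3a, the Nrp1 ligand that repels sensory and motor axons, was the one semaphorin with a positive value. It measured 12.54, 14.2 and 13.1 RPKM in WT and 19.3, 15.8 and 15.5 in KO, again without overlap (log2 fold change 0.34 ± 0.10, adjusted p = 0.0911, edgeR). Sema3d measured 5.33, 8.67 and 5.44 against 5.58, 3.44 and 4.61 RPKM, and its genotypes overlapped.

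Besides Sema6a, 18 of the 20 semaphorins had negative values at E11.5 without passing, most of them membrane-bound. Sema4g measured 10.95, 12.7 and 8.29 RPKM in WT and 8.15, 5.07 and 6.12 in KO. The lowest WT library was just above the highest KO library, and the log2 fold change was -0.72 ± 0.21 (adjusted p = 0.115, edgeR). Sema6b had the most negative value of the family, -0.80 ± 0.22, at a low level of 1.21 ± 0.159 RPKM in WT and 0.683 ± 0.0903 in KO (adjusted p = 0.0784, edgeR). Sema4c, a ligand of plexin B2, differed little although its ranges did not overlap, with 27.4 ± 0.975 against 25.4 ± 0.572 RPKM (log2 fold change -0.11 ± 0.07). Sema5a, a transmembrane semaphorin with thrombospondin repeats, was nearly level, with 14.2 ± 1.66 against 14.1 ± 0.738 RPKM (log2 fold change -0.02 ± 0.09).

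The 2 neuropilins had opposite signs. Nrp1, the receptor subunit shared by Sema3a and VEGF-A, measured 15.2, 17.0 and 18.6 RPKM in WT and 11.96, 12.7 and 14.3 in KO at E11.5. All KO libraries lay below all WT libraries, and the log2 fold change of -0.38 ± 0.10 missed the threshold (adjusted p = 0.0652, edgeR). Nrp2 measured 75.9, 85.4 and 59.4 RPKM in WT and 103.7, 70.4 and 95.9 in KO, with overlap (log2 fold change 0.30 ± 0.17, adjusted p = 0.347, edgeR). All 8 plexins tested had negative values, with a median of -0.19, and 1 passed. Plxna1, a partner of Nrp1, measured 29.5, 28.2 and 26.4 against 24.5, 23.3 and 24.0 RPKM, without overlap (log2 fold change -0.23 ± 0.07, adjusted p = 0.105, edgeR). Plxnb2, the most abundant plexin, measured 64.4 ± 4.96 against 58.6 ± 4.20 RPKM and its genotypes overlapped.

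Promoter windows were examined because members of the family shared a sign at E11.5. RefSeq windows of 300 bases, from 250 before to 50 after a gene's start (build GRCm38.p6), were found for 47 of the 54 genes, 61 windows in all. Sema6a, also called lower at E11.5, was among the genes without a window. They were rich in G and C, with a median of 64% against 52.7% over all 32851 windows. The letters of the GC box, GGGCGG on either strand, occurred in 75.4% of the members' windows and 35.7% of all windows. The TATA letters TATAAA occurred in 1.64% and 13.6%, the member being Efnb2. The core letters bound by PITX factors, TAATCC, occurred in 0 of 61 members' windows and in 7.06% of all, and a T-box core, AGGTGT, in 7 of 61 and in 13.7% of all. All motifs were searched on both strands, and the share of each motif, the PITX and TATA letters included, moves with base composition. A match or its absence describes the letters of this window alone. The windows of Plxnd1, which was called lower at E11.5, and of Nrp1 and Sema3c, which did not overlap between genotypes at E11.5 and at E12.5, are shown 5′ to 3′ in lower case with GC-box matches in capitals. They lie at chr6:115994956-115995255 on the minus strand, chr8:128358823-128359122 on the plus strand and chr5:17574566-17574865 on the plus strand, and hold 2, 1 and 3 GC boxes.
Plxnd1: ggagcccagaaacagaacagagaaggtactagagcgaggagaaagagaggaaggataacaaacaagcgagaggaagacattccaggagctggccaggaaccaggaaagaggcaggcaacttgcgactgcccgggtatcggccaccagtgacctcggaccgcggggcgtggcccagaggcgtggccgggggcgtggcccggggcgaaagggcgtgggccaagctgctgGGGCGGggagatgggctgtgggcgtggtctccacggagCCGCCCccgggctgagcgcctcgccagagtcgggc
Nrp1: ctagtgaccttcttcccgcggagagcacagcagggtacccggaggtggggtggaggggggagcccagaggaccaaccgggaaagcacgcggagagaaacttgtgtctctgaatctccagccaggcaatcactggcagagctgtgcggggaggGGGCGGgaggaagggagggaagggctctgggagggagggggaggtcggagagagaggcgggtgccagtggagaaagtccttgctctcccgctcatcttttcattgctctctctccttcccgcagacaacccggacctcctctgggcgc
Sema3c: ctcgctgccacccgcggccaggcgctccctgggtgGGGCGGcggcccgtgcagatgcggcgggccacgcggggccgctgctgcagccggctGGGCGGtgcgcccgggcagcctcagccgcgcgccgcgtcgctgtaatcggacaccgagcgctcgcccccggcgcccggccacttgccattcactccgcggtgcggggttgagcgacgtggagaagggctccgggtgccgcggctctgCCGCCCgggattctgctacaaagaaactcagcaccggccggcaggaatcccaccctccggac

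Ephrins leaned the same way as semaphorins at E11.5, with 7 of 8 values negative and none past the threshold. Of the 8, 5 had an unadjusted p under 0.05 in edgeR, where 22.2% of genes did. Efnb1, the X-linked ephrin-B1 needed for normal skeletal patterning, measured 46.7, 38.7 and 38.7 RPKM in WT and 35.0, 33.4 and 32.4 in KO, without overlap (log2 fold change -0.30 ± 0.09, adjusted p = 0.0969, edgeR). Efnb3 measured 36.6, 38.9 and 42.0 against 32.3, 33.6 and 31.5 RPKM, also without overlap (log2 fold change -0.27 ± 0.08, adjusted p = 0.0868, edgeR). The 3 ephrin-B genes summed to 102.9 to 112.3 RPKM in WT and 90.4 to 91.8 in KO. Efna4 was the exception, with 48.0 ± 1.34 RPKM in WT and 51.5 ± 1.86 in KO and all KO libraries above (log2 fold change 0.10 ± 0.07). Efna3 measured 10.9, 9.86 and 12.2 against 8.24, 8.49 and 7.61 RPKM (log2 fold change -0.44 ± 0.14, adjusted p = 0.116, edgeR).

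Eph receptors were divided in sign at E11.5, with 6 of 13 values positive and 7 negative. Ephb2, which binds ephrin-B ligands and guides ventral motor axons, measured 16.6, 15.6 and 17.6 RPKM in WT and 20.4, 19.0 and 20.5 in KO. All KO libraries lay above all WT libraries (log2 fold change 0.27 ± 0.08, adjusted p = 0.0911, edgeR). Its close relative Ephb3 had the opposite order, with 35.5, 34.7 and 31.8 against 29.9, 30.4 and 28.8 RPKM, likewise without overlap (log2 fold change -0.19 ± 0.07, adjusted p = 0.156, edgeR). Ephb4 measured 66.4, 65.6 and 65.6 against 62.6, 60.6 and 61.2 RPKM, a small difference without overlap (log2 fold change -0.10 ± 0.06). Epha4 measured 42.3, 46.9 and 37.6 against 38.2, 37.8 and 40.8 RPKM and Epha7 13.9 ± 1.68 against 13.7 ± 1.86, and both overlapped. Epha3 was spread widely in WT, with 4.67, 10.5 and 3.96 RPKM, the highest being replicate 2, against 8.25, 7.52 and 4.98 in KO.

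**Figure D3:**
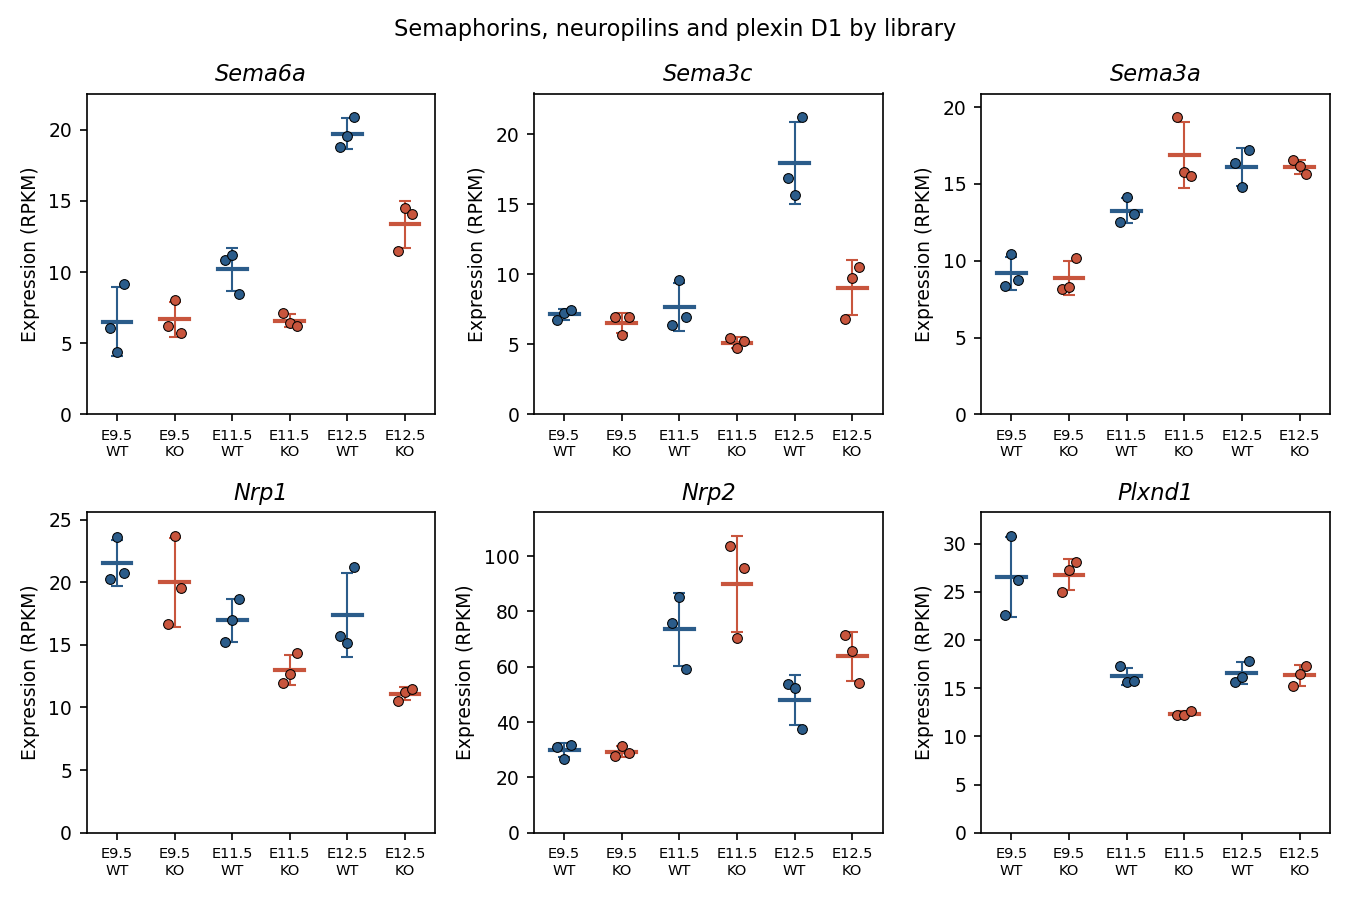
RPKM of Sema6a, Sema3c, Sema3a, Nrp1, Nrp2 and Plxnd1 in each library of the 6 groups, with dots for libraries, a horizontal line for the mean and bars for the SD of 3 libraries (blue WT, red KO). Sema6a, Sema3c and Nrp1 lie lower in every KO library than in every WT library at both E11.5 and E12.5, whereas Plxnd1 is apart at E11.5 and overlaps at E12.5.

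At E12.5 no member passed the threshold. None of 51 members was called by edgeR, where 0.0138% of 14494 genes were. A fit that also took replicate number as a block did call some, named below among the alternatives. Of these members 10 (19.6%) had unadjusted p-values under 0.05, where 15.1% of genes did. DESeq2 called 6 of 53 (1 higher and 5 lower, 11.3%), where it called 2.96% of genes, and limma called none. Log2 fold changes ran from -1.27 to 0.53 and were negative for 34 of 51 members, with a median of -0.07 against -0.00 over all genes. In 10 members all KO libraries lay below all WT libraries, where 10.3% of genes did so, and in 3 all lay above, where 11.4% did. Efnb1, Nrp1, Sema3c and Sema6a lay wholly below at both E11.5 and E12.5, where 2.85% of the 14157 genes tested at both did so. No member lay wholly above at both, where 3.29% did.

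Sema6a measured 18.8, 19.6 and 20.9 RPKM in WT and 11.46, 14.5 and 14.1 in KO at E12.5. The gap between genotypes was wider than either range, and the log2 fold change of -0.56 ± 0.09 missed the threshold (adjusted p = 0.0965, edgeR; 3.70e-05, DESeq2). Sema3c measured 16.9, 15.6 and 21.2 RPKM in WT and 6.84, 9.74 and 10.5 in KO, the largest difference among members above 5 RPKM in both genotypes, the log2 value being -0.99 ± 0.18 (adjusted p = 0.150, edgeR; 3.15e-06, DESeq2). With all 18 libraries in 1 fit the same log2 fold change of Sema3c, -0.98, passed (adjusted p = 0.0295, edgeR). Nrp1 measured 15.7, 15.1 and 21.2 against 10.5, 11.3 and 11.515 RPKM (log2 fold change -0.65 ± 0.13, adjusted p = 0.155, edgeR; 0.000247, DESeq2). WT replicate 3, the library low in Pitx1, was the highest of the stage for all 3 genes, and without it their log2 fold changes were -0.52 for Sema6a, -0.84 for Sema3c and -0.48 for Nrp1.

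Nrp2 again had the sign opposite to Nrp1. It measured 53.8, 52.3 and 37.4 RPKM in WT and 71.5, 65.6 and 54.3 in KO at E12.5, with the lowest KO library just above the highest WT library (log2 fold change 0.41 ± 0.16, adjusted p = 0.307, edgeR). The value of WT replicate 1 carries a failed status in the deposited table, and without that library the log2 fold change was 0.51 (adjusted p = 0.220, edgeR). WT replicate 3, the library low in Pitx1, was the lowest of the stage for Nrp2, at 37.4 RPKM, and the value without it is not given here. Sema3e, at 0.947, 0.822 and 1.95 RPKM in WT, measured 0.414, 0.507 and 0.646 in KO (log2 fold change -1.25 ± 0.36, adjusted p = 0.228, edgeR). Its receptor Plxnd1, called lower a day before, overlapped at E12.5 with 16.5 ± 1.14 against 16.3 ± 1.07 RPKM (log2 fold change -0.02 ± 0.07). The difference of the Plxnd1 effect between the 2 stages was 0.36 ± 0.10 and did not pass (adjusted p = 0.316, edgeR).

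Among Eph receptors at E12.5, Epha3, a receptor for ephrin-A ligands, measured 13.3, 12.47 and 17.6 RPKM in WT and 19.0, 19.5 and 24.0 in KO. All KO libraries lay above all WT libraries (log2 fold change 0.53 ± 0.15, adjusted p = 0.228, edgeR; 0.0176, DESeq2). Ephb1, a receptor for ephrin-B ligands, had the opposite order at a low level, with 2.72, 2.97 and 3.94 against 0.984, 1.19 and 2.44 RPKM (log2 fold change -1.07 ± 0.34, adjusted p = 0.264, edgeR; 0.0242, DESeq2). Epha2 measured 3.25, 3.72 and 3.46 against 2.80, 2.97 and 2.21 RPKM, without overlap (log2 fold change -0.38 ± 0.14, adjusted p = 0.288, edgeR). Ephrins differed less. Efnb1 measured 37.1, 43.6 and 37.3 against 36.6, 33.5 and 35.3 RPKM (log2 fold change -0.16 ± 0.08), and ephrin-A genes had values from -0.20 to 0.12.

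Markers differed at E12.5 as well. Cartilage markers summed to 500.8 to 550.4 RPKM in WT and 308.4 to 390.0 in KO, with 9 of 11 values negative, and the macrophage sums did not overlap either (53.3 to 64.9 against 34.7 to 46.6). Muscle sums overlapped (564.6 to 834.9 against 356.2 to 728.1), with 12 of 14 negative, and all 10 neural crest and Schwann cell markers were negative (sums 42.1 to 55.9 against 32.2 to 50.9). Endothelial sums overlapped, with 193.4 to 243.4 against 194.0 to 214.3 RPKM and 9 of 15 values negative. Surface ectoderm sums ran from 260.8 to 491.7 RPKM in WT, the highest being replicate 3, and from 288.2 to 340.1 in KO. The 15 limb mesenchyme markers, Pitx1 among them, had 9 positive values and 1, Tbx4, called lower. Neuron sums were 60.8 to 68.5 against 49.5 to 56.5 RPKM, with 7 of 10 values negative and none called by edgeR or limma. An unadjusted p under 0.05 was seen in 5 of the 10 in edgeR, where 15.1% of genes had one. DESeq2 called 2 neuron markers, where it called 2.96% of genes. Cartilage had 7 of 11 and limb mesenchyme 10 of 15 markers at such a p, and DESeq2 called 7 and 6. Other lists had at most 4 such markers, and DESeq2 called at most 1 of each. Of 9 red blood cell markers 7 were negative. The part of these marker differences in the values of Sema6a, Sema3c, Nrp1 and Epha3 was not tested.

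**Figure D4:**
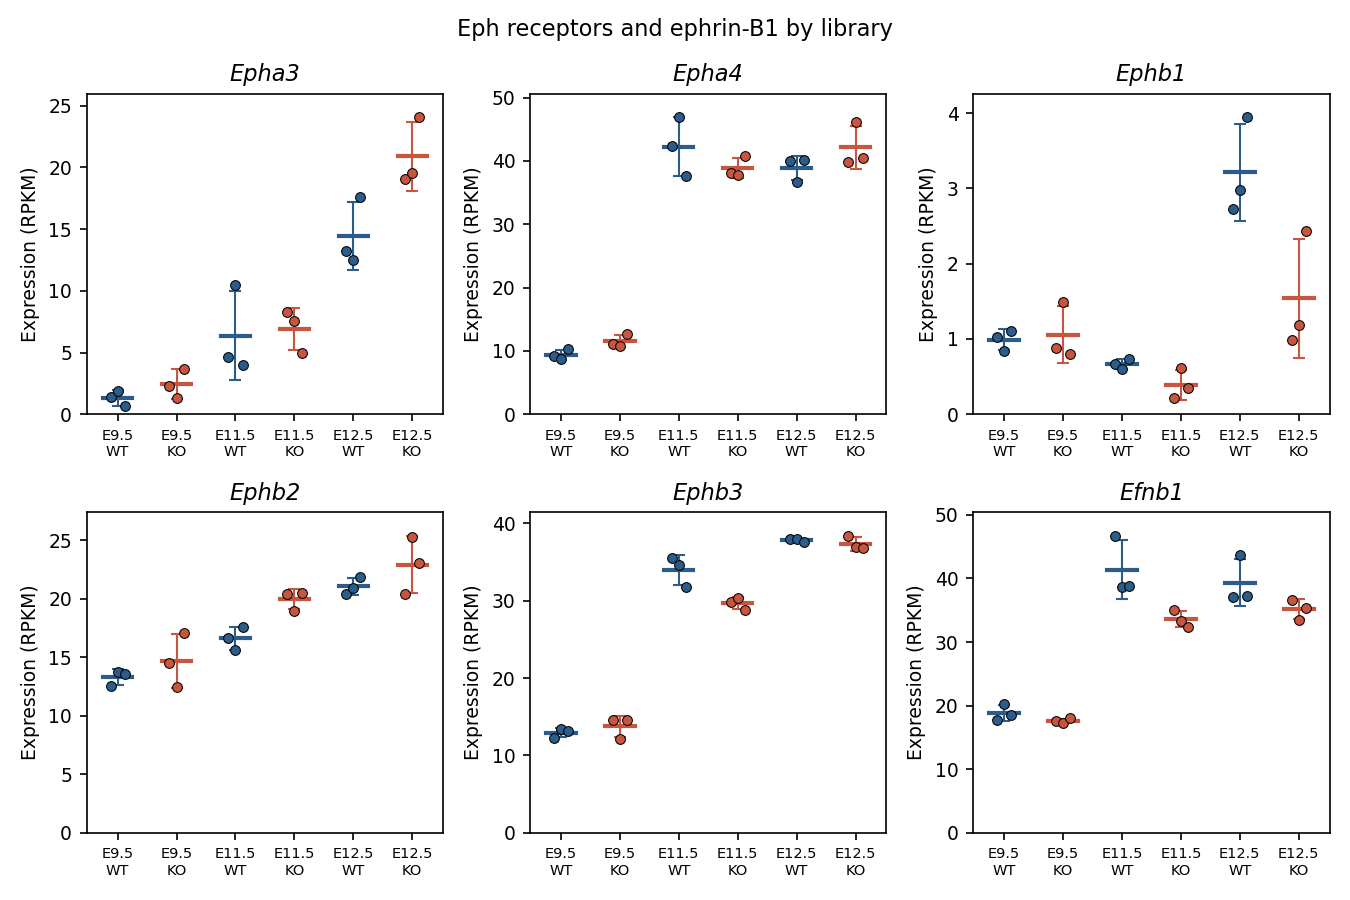
RPKM of Epha3, Epha4, Ephb1, Ephb2, Ephb3 and Efnb1 in each library of the 6 groups, with dots for libraries, a horizontal line for the mean and bars for the SD of 3 libraries (blue WT, red KO). The 3 stages come from tables normalized separately. Epha4, Ephb3 and Efnb1 step up between E9.5 and E11.5 in both genotypes, while Epha3 and Ephb1 are highest at E12.5, where Epha3 is higher and Ephb1 lower in every KO library.

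More members changed between stages than between genotypes. From E9.5 to E11.5 in WT, 28 of 52 members tested rose and 8 fell (edgeR, adjusted p under 0.05), or 69.2%, where 55.9% of 15372 genes changed (28.3% rose and 27.6% fell). In KO 23 rose and 12 fell, or 67.3%, where 50.5% of genes changed (25% rose and 25.5% fell). Leaving out each library in turn, those that stood apart at E9.5 included, gave 30 to 35 calls in WT and 29 to 37 in KO. All 23 that rose in KO also rose in WT, and 7 of the members that fell did so in both genotypes. Tissue and stage cannot be told apart here, because the E9.5 samples held trunk as well as limb field. The stage comparisons of WT and KO use the same libraries as the comparisons of genotype.

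Between E9.5 and E11.5 Epha4 rose by 2.10 ± 0.10 on the log2 scale in WT (adjusted p = 3.23e-09, edgeR) and 1.68 ± 0.09 in KO, and the receptors Ephb3 (1.32 ± 0.08 and 1.04 ± 0.08) and Epha7 (1.56 ± 0.30 and 1.22 ± 0.30) also rose. Sema3f rose by 1.54 ± 0.11 in WT and 1.40 ± 0.11 in KO, and its receptor Nrp2 by 1.22 ± 0.15 and 1.56 ± 0.15. Plxna4, which pairs with neuropilins for Sema3a, rose by 2.35 ± 0.28 in WT and 2.76 ± 0.30 in KO. All 3 ephrin-B genes rose in both genotypes, led by Efnb1 with 1.07 ± 0.09 in WT and 0.86 ± 0.09 in KO. The KO call of Efnb2 was lost without E11.5 KO replicate 3 or E9.5 KO replicate 1 (adjusted p = 0.0643 and 0.0623, edgeR). That of Efnb3 was lost without E11.5 KO replicate 1 or 2 or E9.5 KO replicate 2 (0.0506 to 0.107). Sema5a, Sema6c and Sema4f also rose in both, by 2.12 ± 0.24, 2.27 ± 0.17 and 2.75 ± 0.33 in WT.

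Other members fell over the same interval. Plxna2, a receptor for Sema6a, fell by 1.46 on the log2 scale in WT and by 1.61 in KO (adjusted p = 1.71e-07 in WT, edgeR). Plxnd1 fell by 0.78 in WT and 1.18 in KO, Nrp1 by 0.42 and 0.69, and Sema3e, the Plxnd1 ligand, by 3.01 and 2.36. The fall of Sema3e was 1.97 in WT without E9.5 WT replicate 3 (adjusted p = 0.0211, edgeR), and its KO call was lost without E9.5 KO replicate 2 (0.124) or any of the 3 E11.5 KO libraries (0.0754 to 0.0892). Of the VEGF genes that share neuropilins, Kdr, Flt4, Flt1 and Vegfc fell in both genotypes, with log2 fold changes in WT of -1.01, -1.43, -0.85 and -1.57. Vegfb fell by 0.77 in KO. Figf, which encodes VEGF-D, rose by 2.15 in KO (adjusted p = 0.00628, edgeR) and Pgf, the placental growth factor, by 0.67 in WT (0.0422). The sums of the 15 endothelial markers were 272.1 to 314.0 RPKM in WT at E9.5 and 149.7 to 176.8 at E11.5, in tables normalized separately, and 12 of the 15 markers fell in each genotype.

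From E11.5 to E12.5 the tissue was the hindlimb throughout. In WT 18 of 53 members rose and 5 fell, or 43.4%, where 33.4% of 15324 genes changed (17.1% rose and 16.3% fell). In KO 27 rose and 3 fell, or 56.6%, where 41.5% of genes changed (20.4% rose and 21.1% fell). Of those that rose 15 did so in both genotypes, and Epha2 and Nrp2 fell in both. Leaving out each library in turn gave 13 to 24 member calls in WT, where counts over all genes ran from 3414 to 5202. The 13 came without WT replicate 3 of E12.5.

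**Figure D5:**
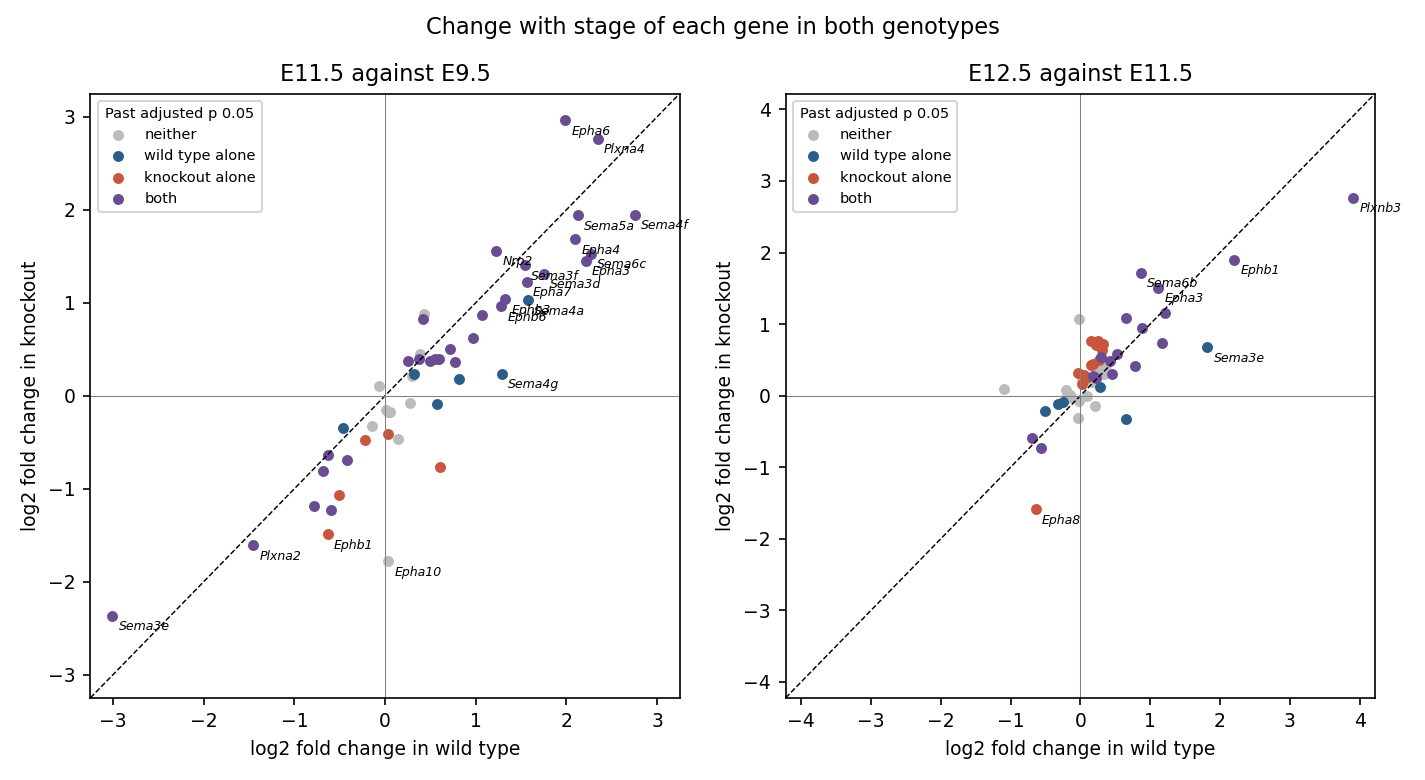
Log2 fold change of each member between stages in WT (horizontal axis) and KO (vertical axis), for E11.5 against E9.5 on the left and E12.5 against E11.5 on the right, with colours for adjusted p under 0.05 in neither, one or both genotypes and a dashed line for equal change. Most members lie near the line. On the right, Sema6b and Sema3e lie away from it, with values of 0.87 and 1.82 in WT and 1.72 and 0.68 in KO. Ephb1 lies nearer to it, with 2.21 in WT and 1.90 in KO.

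Sema6a rose between E11.5 and E12.5 by 0.89 ± 0.11 in WT (adjusted p = 0.000392, edgeR) and 0.94 ± 0.11 in KO, where it started lower. The difference between these rises was 0.06 ± 0.16 (adjusted p = 0.923, edgeR). Sema3c rose by 1.16 ± 0.18 in WT and 0.74 ± 0.19 in KO, a difference of -0.42 ± 0.26 that did not pass (adjusted p = 0.591, edgeR). Ephb1 rose by 2.21 ± 0.38 in WT and 1.90 ± 0.39 in KO. Epha3 rose by 1.11 ± 0.35 and 1.51 ± 0.35, and its WT call was kept in 4 of 12 fits that left out 1 library (E11.5 WT replicate 2, E11.5 KO replicate 1 or 3, or E12.5 KO replicate 3) and lost in 8 (adjusted p = 0.0513 to 0.135, edgeR). Without E11.5 WT replicate 2, its highest WT library of that stage, the rise was 1.68. Sema5a rose by 0.78 ± 0.15 in WT and 0.42 ± 0.15 in KO, the KO call being lost without any one E11.5 KO library, E11.5 WT replicate 3, or E12.5 KO replicate 2 or 3 (adjusted p = 0.0521 to 0.118, edgeR). Nrp2 fell by 0.69 in WT and 0.59 in KO, and its WT call was lost without E11.5 WT replicate 2 or E12.5 WT replicate 3 (adjusted p = 0.0565 and 0.0665, edgeR). Its KO call was lost without E11.5 KO replicate 1 or 3 or E12.5 KO replicate 2 or 3 (adjusted p = 0.0620 to 0.0970, edgeR). Plxnb3, which was near 0 at E11.5, rose in both genotypes but to no more than 0.174 RPKM. Its KO call was lost without E12.5 KO replicate 3 (log2 fold change 2.30, adjusted p = 0.0696, edgeR), and the KO value was 4.27 without E11.5 KO replicate 2.

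Among the members called at this step in KO and not in WT were Plxnd1 and Sema4g. Plxnd1 rose by 0.32 ± 0.07 in KO (adjusted p = 0.00251, edgeR) and had -0.04 ± 0.07 in WT, and Sema4g rose by 0.76 ± 0.17 in KO (adjusted p = 0.00445, edgeR). Sema6b rose in both, by 1.72 ± 0.20 in KO and 0.87 ± 0.19 in WT. None of these differences between genotypes passed when tested as such. No member of 53 passed the test of the difference of the KO effect between E12.5 and E11.5 (edgeR), where 0.00653% of genes did. An unadjusted p under 0.05 was seen in 7 members (13.2%) and in 10.3% of genes. DESeq2 called no member, where it called 0.736% of genes. For the difference between E11.5 and E9.5 no member of 52 passed in edgeR, where 0.026% of genes did (0.013% in each direction). An unadjusted p under 0.05 was seen in 11 members (21.2%) and in 15.2% of genes. DESeq2 called 2 of 50 members (4%), where it called 2.84% of genes. They were Sema4g (log2 difference -1.05, adjusted p = 0.0103, DESeq2) and Sema6b (-1.38, adjusted p = 0.0339, DESeq2), both more negative at E11.5.

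Genes taken as partners or transducers of these receptors were listed from knowledge of the pathways, with earlier results of these data known. Of 32 genes listed for semaphorins and plexins (among them the Crmp1 and Dpysl family, Mical enzymes and Rnd GTPases) none was called at any stage by edgeR. At E11.5 20 of 32 had negative values (median -0.11), with 7 (21.9%) at an unadjusted p under 0.05, where 22.2% of genes were. DESeq2 called 4 of 32, where it called 8.96% of genes, and limma none. Of the genes listed for Eph receptors and ephrins, 22 of 28 were negative at E11.5 (median -0.12), with none called by edgeR or limma. Of the 28, 6 (21.4%) were at an unadjusted p under 0.05 in edgeR and 1 was called by DESeq2. At E12.5 neither list had a call by edgeR, DESeq2 or limma. An unadjusted p under 0.05 was seen in 4 and 2 genes in edgeR, where 15.1% of genes had one. At E9.5 none of either list reached even that, where 4.01% of genes did.

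VEGF ligands and receptors share neuropilins with semaphorins, and 7 of the 8 found had negative values at E11.5 (median -0.35). Of the 8, 6 had an unadjusted p under 0.05 in edgeR, where 22.2% of genes did. None was called by edgeR or limma, and 2 were by DESeq2, where these tools called 1.96%, 0.808% and 8.96% of genes. The VEGF sums did not overlap between genotypes, with 76.6 to 91.3 RPKM in WT and 64.7 to 70.6 in KO at E11.5 and 88.5 to 90.4 against 75.6 to 80.5 at E12.5. Vegfa, the Nrp1 ligand, measured 20.2, 21.0 and 18.7 RPKM in WT and 15.3, 14.8 and 15.4 in KO at E12.5, where all KO libraries lay below (log2 fold change -0.40, adjusted p = 0.108, edgeR). Of the other axon guidance families (slits, robos, netrins and their receptors, and the Rgm genes), 16 of 20 were negative at E11.5. An unadjusted p under 0.05 was seen in 8 of the 20 in edgeR, where 22.2% of genes had one. Beside the same shares of all genes, DESeq2 called 4, limma none and edgeR 1, lower. This was Rgma, a repulsive ligand of neogenin and a BMP co-receptor, with 19.968, 16.7 and 14.2 RPKM in WT and 11.9, 10.3 and 9.70 in KO (log2 fold change -0.67 ± 0.13, adjusted p = 0.0366, edgeR; 8.28e-05, DESeq2; 0.0702, limma on log2(RPKM + 1)). Its call was kept without WT replicate 3 or KO replicate 1 (0.0130 and 0.0268, edgeR) and lost without any other library of the stage (0.0818 to 0.191). At E9.5 and E12.5 neither list had a call by edgeR or limma. At E9.5 1 gene of each had an unadjusted p under 0.05 in edgeR, where 4.01% of genes did, and DESeq2 called none. At E12.5 1 of 8 VEGF genes and 6 of 19 others had such a p in edgeR, where 15.1% of genes did. DESeq2 called 1 and 4 at that stage, where it called 2.96% of genes.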

How the data were processed

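RNA of 18 libraries was sequenced after poly(A) selection with a stranded TruSeq kit, per the labels' protocols. FastQC, TopHat2 and Cuffdiff were used with mouse build mm9, per the submitters' processing notes, and no version, annotation or strand setting could be taken from those notes (not given in the sources used here). Per the file headers, the deposited tables, 1 per stage, hold raw fragments and RPKM values as normalized by the authors. The deposited fragments are estimated counts, 1.79% of them not whole. The tables number replicates from 0, taken here in order as 1 to 3. Fragments were rounded to whole numbers. Of 23929 genes listed, 2 names each standing for 2 genes and 6 genes without an estimate were left out. Replicates differed by more than sampling noise (chi-square per degree of freedom at least 8.26).

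KO was set against WT at each stage by edgeR 4.0.16 under R 4.3.3 (TMM, filterByExpr, robust quasi-likelihood F test, Benjamini-Hochberg adjustment over all genes tested, threshold 0.05). Stages and differences of the KO effect were contrasts in group-means fits of 12 libraries. The code was checked on simulated counts. Alternatives were RLE factors, no robust step, a filter at a mean of 1 RPKM or none, the replicate block, DESeq2 1.42.0, limma 3.58.1 on log2(RPKM + 1) and log2(RPKM + 0.1), thinning to the smallest library, all 18 libraries in 1 fit and leaving out each library. Fits at E9.5 without the 2 libraries that stood apart were added after the data were seen. SE values of log2 fold changes come from the F statistic.

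Members were matched by name. The members, the 4 pathway lists and the 9 marker lists were chosen with earlier results of these data known. Genes named with values were every member past the threshold, a core set, the 4 members with the smallest p in each direction per comparison at 1 RPKM or more, up to 4 called genes per pathway list, and Pitx1. Other members named were chosen after their values were seen. Promoter windows come from RefSeq and were searched on both strands.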

Additional observations from a re-analysis of the deposited data

How the results depend on the processing

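Counts of members called (edgeR unless another tool is named) moved as follows. At E11.5 the count of 2 became 1 with the replicate block (Sema6a, with Plxnd1 lost), 11 with DESeq2, 0 with limma on log2(RPKM + 1) and 0 with limma on log2(RPKM + 0.1), and ranged from 0 to 3 when each library was left out. At E12.5 the count of 0 became 7 with the replicate block (2 higher and 5 lower: Epha3, Nrp2, Ephb1, Nrp1, Sema3c, Sema3e and Sema6a), 6 with DESeq2 and 1 with all 18 libraries in 1 fit, and stayed 0 without each library. For the difference between E11.5 and E9.5 DESeq2 called 2 where edgeR called 0. Leaving out each library gave 0 at E9.5 and 0 for both differences. It gave 13 to 24 for E12.5 against E11.5 in WT, 20 to 31 in KO, 30 to 35 for E11.5 against E9.5 in WT and 29 to 37 in KO. No member reversed a called direction under any alternative run, and no scaling moved the median of all genes by over 0.1. The cause of these moves was not tested. Counts over all genes moved more: 286 at E11.5 became 100 with the block, 525 without the filter, 692 with all 18 libraries, 1283 with DESeq2, 118 and 133 with limma and 9 to 643 without each library, and 2 at E12.5 became 386 with the block, 449 with DESeq2 and 23 with all 18 libraries. At E9.5 3 became 20 with DESeq2 and 0 with the block. Replicate numbers did not pair the libraries at E9.5 or E11.5. Deviations of same-numbered WT and KO libraries correlated at -0.474 to -0.014 at E9.5 and -0.401 to 0.038 at E11.5. At E12.5 same-numbered libraries correlated at 0.014 to 0.285 and libraries of other numbers at -0.287 to 0.036. Not every library correlated best with its own number there, and whether the numbers pair the E12.5 libraries was not settled. With 3 libraries a group, differences of the size seen for most members could not be told from the spread between libraries, and members under 1 RPKM rest on few fragments.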

Other observations

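The other guidance families also changed between stages. From E9.5 to E11.5 the slit receptors Robo2 and Robo1 rose in both genotypes, by log2 fold changes of 2.26 ± 0.16 and 1.26 ± 0.12 in WT and 1.87 ± 0.15 and 1.14 ± 0.12 in KO. Their ligand Slit3 rose by 0.91 ± 0.09 in WT and 0.53 ± 0.09 in KO, whereas Slit1 fell by 2.95 in WT and 4.10 in KO. Ntn1, the netrin that attracts commissural axons, fell by 1.37 in WT and 1.80 in KO, and Ntn3 rose by 1.88 ± 0.15 and 1.82 ± 0.15. From E11.5 to E12.5 Ntng1, a netrin anchored to the membrane, rose by 2.33 ± 0.35 in WT and 1.99 ± 0.35 in KO, and Unc5b, a netrin receptor of vessels, fell by 0.53 and 0.37. All of these passed an adjusted p of 0.05 (edgeR).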
